A study of Homo sapiens with 4 samples.

Results

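The genes described here are targets of the transcription factor NRF2 together with enzymes that metabolize foreign compounds. The list holds 39 genes, and a gene's members on the array were the non-control probes whose accession belongs to it. A probe was found for 37 of the 39 genes, and 35 genes had at least 1 probe well above background on all 4 arrays, out of 13602 genes that passed this filter and 19483 genes with a named probe in the whole series. AKR1C2 and OSGIN1 had no probe by accession, and NFE2L2 and CYP1A1 had a probe that did not pass. The rule that names the genes uses no measured value.

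The arrays were made from HuCCT1, a human intrahepatic cholangiocarcinoma cell line that had been grown in 10% serum, and the study asked which mRNAs follow miR-376c and the adaptor gene GRB2 in EGF-treated cells. One culture received Pre-miR-376c, a mimic of mature miR-376c-3p, and another its Pre-miR negative control. A further culture received siGRB2, an siRNA against GRB2 that the study's methods call siGRB2-2, and the last a non-silencing siRNA negative control. Each agent was given at 30 nM for 24 h, and all 4 cultures were then exposed for 24 h to 5 ng/ml EGF in medium with 0.1% serum, so no array shows the cells without EGF. From each culture 200 ng of RNA was labelled with 1 dye and hybridized to 1 array. There is therefore 1 array per group and no replicate, so no difference given here was tested, and precision is limited by the number of arrays. In RNA from a whole culture, fewer cells making a transcript and less of it per cell cannot be told apart.

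NRF2, encoded by NFE2L2, is held low by KEAP1, which presents it to a ubiquitin ligase. Oxidants and electrophiles disable KEAP1, and NRF2 then binds antioxidant response elements (AREs) with a small MAF partner and turns on genes for glutathione and thioredoxin metabolism, NADPH supply, iron storage and detoxification. The xenobiotic enzymes CYP1A1 and CYP1B1 are better known as targets of the aryl hydrocarbon receptor, which binds xenobiotic response elements (XREs), and several genes of the list can be driven by both. Bile duct cells meet bile acids and drug conjugates, and the same enzymes are known for the resistance of tumour cells to drugs.

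The sequences below show the miRNA that was transfected and the ARE cores in the promoters of members whose values are described further on. The mature miRNA and the promoters are those of RefSeq on GRCh38.p14, which is not the build named in the scanner files, so no position was carried over to the probes. Mature miR-376c-3p lies at chr14:101039732-101039752 on the plus strand, and capitals mark its seed, bases 2 to 8.
hsa-miR-376c-3p: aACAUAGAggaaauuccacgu

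An ARE core was searched as TGACNNNGC on both strands of the 300 bases from 250 before to 50 after each gene start. In the windows below, read 5′ to 3′ on the strand that carries the core, capitals mark the core.
EPHX1, chr1:225825268-225825292, plus strand: agattggcTGACTTGGCaggactgt
ME1, chr6:83431172-83431196, minus strand: tcctgccaTGACTCAGCgcttctcg
GPX2, chr14:64942851-64942875, plus strand: ccccaggaTGACTTAGCaaaaacag
GCLM, chr1:93909448-93909472, plus strand: gaagacaaTGACTAAGCagaaatcg
TXNRD1, chr12:104215672-104215696, plus strand: acgggctaTGACTTCGCtgttgtca
GSTP1, chr11:67583738-67583762, plus strand: cggcgccgTGACTCAGCactggggc
KEAP1, chr19:10502786-10502810, plus strand: ggtcaccaTGACTAAGCagagccgg

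Promoter entries were found for 30 of the 39 genes, with 43 windows among them, and 12 of the 43 (27.9%) held an ARE core, against 13.3% of all 35116 windows of this length. Of the 16 ARE cores found in members, those printed for GSTP1 and ME1 also contain the AP-1 site TGANTCA, a site bound by FOS and JUN proteins, and none overlapped an XRE core. The XRE core GCGTG was in 24 of the 43 windows (55.8%), against 36.5% of all windows. These matches describe letters in the windows and do not show that a factor was bound. Bases outside the windows were not searched, so a member listed as without a core may still carry it farther from its gene start. The groups compared next therefore do not separate genes that have an ARE from genes that lack it. Of the 26 members with a value and a promoter entry, the 11 with an ARE core had a median log2 difference from the own negative control of -0.01 under Pre-miR-376c and of 0.41 under siGRB2, and the 15 without one had medians of -0.10 and -0.11, beside -0.02 and 0.11 for all genes. The siGRB2 medians rest on the siRNA negative control array, which stood apart from the rest. Between the negative controls the medians were -0.13 with a core and 0.03 without, and with siGRB2 against Pre-miR negative control they were 0.17 and -0.01. Both groups held members on either side of 0 in both comparisons.

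All levels below are log2 signals minus the 75th percentile of the same array, so that 0 is a signal equal to that percentile, and all differences are differences of these levels. The scanner software's own error on a difference was about 0.20 for a member with 1 probe of 1 spot and about 0.14 for a member with 2 such probes, and it covers the array and not the culture. All arrays shared 1 slide and 1 scan, and their 75th percentile signals ran from 1719 to 2689. The targeted gene GRB2 (1 probe) had levels of 0.62 with Pre-miR negative control, 0.07 with Pre-miR-376c, -0.10 with siRNA negative control and -0.65 with siGRB2. The siRNA negative control array was the highest or the lowest of the 4 arrays for 25 of the 35 members (71.4%) and for 74.4% of all genes. Markers of biliary epithelium were well above background on all 4 arrays for 7 of 7 genes, among them KRT7 and KRT19. The same held for 2 of 5 hepatocyte markers, 2 of 4 leukocyte markers, 1 of 4 fibroblast markers and 2 of 4 endothelial markers, with the hepatocyte genes ALB and TTR, the fibroblast gene DCN and the endothelial gene KDR not well above background on any array.

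Most members were clearly measurable. Of the 35, 18 lay above the 75th percentile on all 4 arrays (51.4%, beside 34.2% of all genes). Below it on all 4 lay 13 (37.1%, beside 58.5% of all genes), and 4 crossed it. The 10 brightest were GSTP1, FTH1, TKT, PRDX6, TXN, GPX1, PRDX1, TALDO1, GSTO1 and MGST1, with mean levels of 4.41 to 6.36, although probes differ in how they bind and brightness does not order transcripts by amount. The steadiest member was TKT, transketolase of the pentose phosphate pathway, with a range of 0.05 over the 4 arrays. The range was widest for FTL, at 1.52. The median range was 0.55 for the members and 0.53 for all genes, and without the siRNA negative control array it was 0.32 and 0.29. A range of 2-fold or more was met in 3 of the 35 members (8.57%) and in 1563 of 13602 genes over 4 arrays, and in none of the members and 2.12% of all genes over the other 3 arrays.

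**Figure D1:**
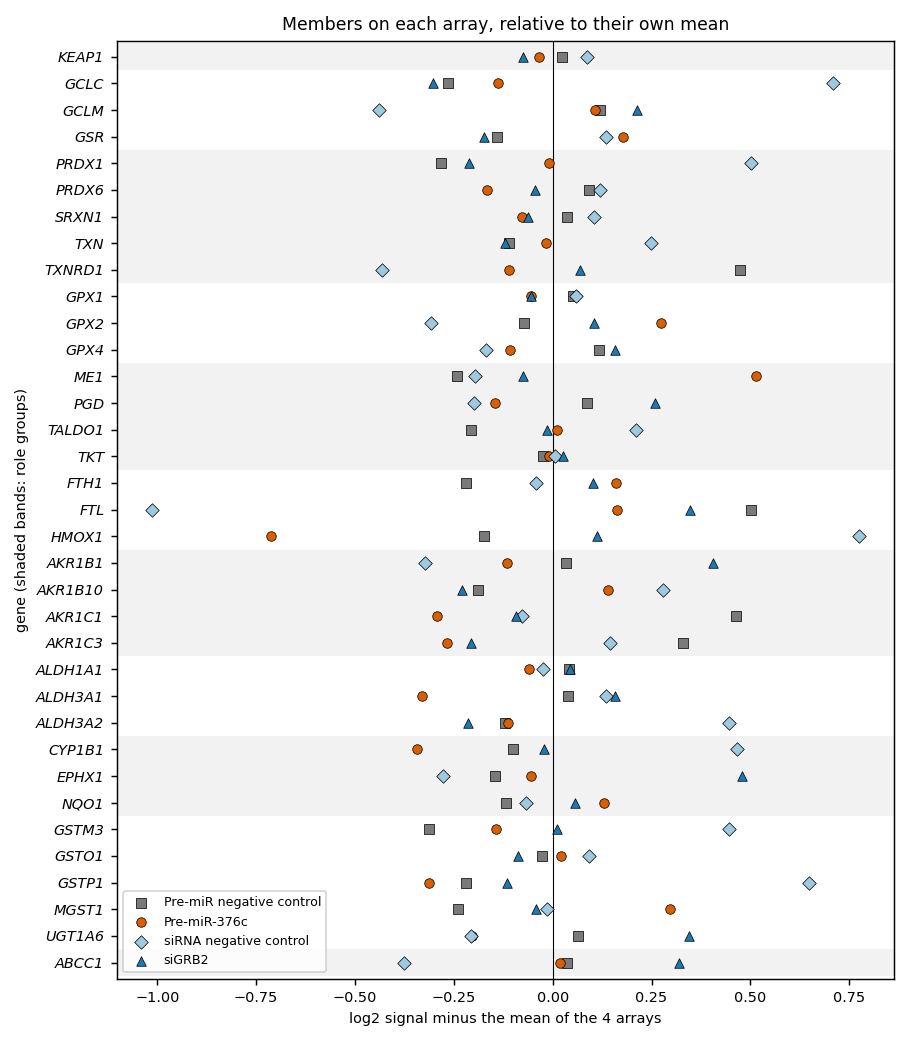
Level of each of the 35 members on each array, as log2 signal minus the member's own mean over the 4 arrays (horizontal axis), with genes grouped by role in shaded bands. The light blue diamonds of the siRNA negative control array lie farthest out for FTL, HMOX1, GCLC and GSTP1, while the 4 symbols of TKT nearly coincide.

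With Pre-miR-376c against Pre-miR negative control, no member differed 2-fold or more, beside 1.14% of all genes. At 1.5-fold, ME1 was higher, beside 2.68% of all genes, and AKR1C1, AKR1C3 and TXNRD1 were lower, beside 5.12%. These are 4 of 35 members (11.4%) beside 7.8% of all genes. The members' median difference was -0.02, the same as that of all genes. Above 0 lay 16 members (45.7%, beside 46.9% of all genes) and below it 19 (54.3%, beside 53.1%). The list as a whole therefore had about the background share of differences in this comparison.

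With siGRB2 against siRNA negative control, FTL was more than 2-fold higher and GCLC more than 2-fold lower, which is 2 of 35 members (5.71%) beside 6.74% of all genes, 4.3% higher and 2.44% lower. At 1.5-fold the members were FTL, EPHX1, AKR1B1, ABCC1 and GCLM on the higher side and GCLC, GSTP1, PRDX1, HMOX1 and ALDH3A2 on the lower side. These 10 members are 28.6% of the 35, beside 28.5% of all genes, 17.6% higher and 10.9% lower. The members' median was -0.03 and that of all genes 0.11. Above 0 lay 16 members (45.7%, beside 58.6% of all genes) and below it 19 (54.3%, beside 41.4%). With each array scaled on its median the all-gene median became -0.17 and the members' median -0.31. This scaling moves all genes of a comparison alike, so the distance between the medians, -0.14, could not change. That distance was -0.07 after quantile normalization and -0.24 with the brightest probe of a gene. It was -1.02 with the normexp background correction and 0.04 with the other negative control. The scaling also decided the direction of the background: 585 genes were 2-fold higher and 332 lower as reported here, 205 and 992 on the medians, 333 and 440 after quantile normalization, and 414 and 477 in the deposited log2 values.

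The negative controls were also compared with each other. FTL was more than 2-fold lower on the siRNA negative control than on Pre-miR negative control, the only member past that limit, beside 5.7% of all genes. At 1.5-fold 5 members were higher on it, beside 10.4% of all genes, and 2 were lower, beside 14.7%. The members' median was 0.05 and that of all genes -0.08. Since the siRNA negative control enters every siGRB2 difference against its own control, each member past 1.5-fold is also given below against the other negative control, and the values share arrays. Against Pre-miR negative control, siGRB2 left no member 2-fold apart, beside 0.934% of all genes, and its median was 0.07 for the members and 0.03 for all genes. Pre-miR-376c against the siRNA negative control put 2 members past 2-fold, FTL higher and HMOX1 lower, beside 4.57% of all genes. Between the treatments themselves no member was 2-fold apart, beside 0.956% of all genes, and 2 passed 1.5-fold, beside 6.04%. With siGRB2 these were higher for HMOX1 (0.83) and lower for ME1 (-0.59) than with Pre-miR-376c.

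**Figure D2:**
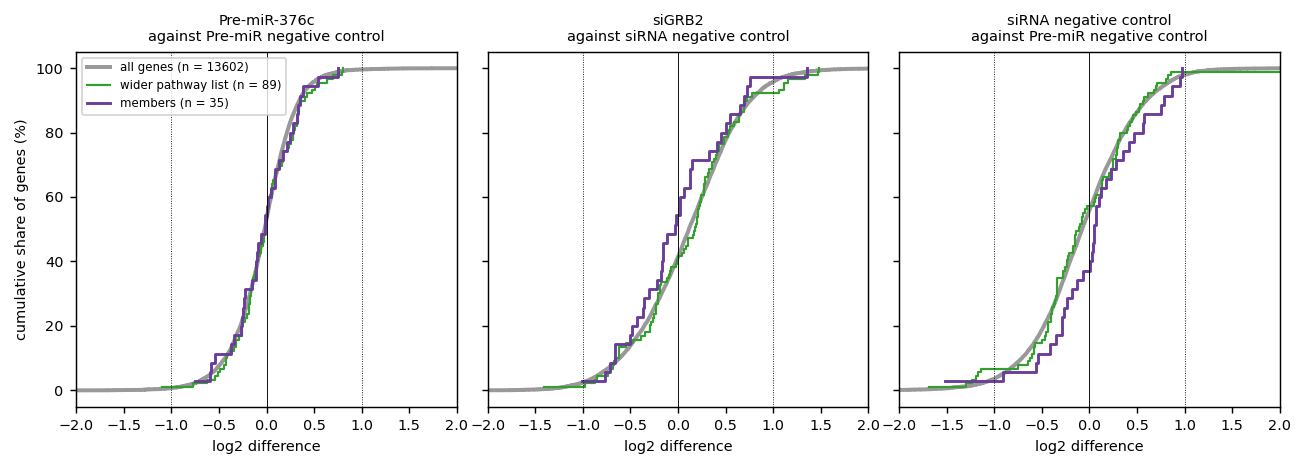
Cumulative share of genes (vertical axis, percent) against the log2 difference (horizontal axis) in 3 comparisons, for the 35 members (purple), 89 genes of the wider pathway list (green) and all 13602 genes (grey), with dotted lines at 2-fold. The members follow all genes with Pre-miR-376c, and the purple line lies left of the grey one around 0 with siGRB2, with medians of -0.03 and 0.11.

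The regulators were measured in part. The single NFE2L2 probe was not well above background on any array, so no difference is given for NRF2's own transcript. KEAP1, the brake on NRF2, was measured by 10 spots and had levels of 0.80 with Pre-miR negative control, 0.74 with Pre-miR-376c, 0.87 with siRNA negative control and 0.70 with siGRB2. Both treated arrays were thus slightly below both controls. The differences, -0.06 with Pre-miR-376c and -0.16 with siGRB2, were below the scanner error, and the order was lost on the median scale.

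Among the genes of glutathione synthesis and reduction, the subunits of glutamate-cysteine ligase went opposite ways on the siRNA negative control array. GCLC, the catalytic subunit of this rate-limiting enzyme, had levels of -0.84 with Pre-miR negative control, -0.71 with Pre-miR-376c, 0.14 with siRNA negative control and -0.87 with siGRB2. Only the siRNA negative control was high, and the other 3 arrays lay within the scanner error of each other. The difference with siGRB2 was -1.01 against its own control and -0.04 against Pre-miR negative control. GCLM, the modifier subunit, had levels of 3.51, 3.50, 2.95 and 3.6 in the same order of arrays. Here the siRNA negative control was the low array, and the difference with siGRB2 was 0.65 against its own control and 0.09 against the other. With Pre-miR-376c against its own control, GCLC differed by 0.13 and GCLM by -0.01. GSR, which reduces glutathione disulfide with NADPH, differed by 0.32 with Pre-miR-376c and by -0.31 with siGRB2 (-0.03 against the other control), and its 2 probes went opposite ways between the controls (-0.18 and 0.74).

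Of the thioredoxin and peroxiredoxin members, 4 of 5 lay below 0 with siGRB2 against its own control, beside 41.4% of all genes. With Pre-miR-376c, 2 of 5 lay above 0, beside 46.9% of all genes. On the siRNA negative control 4 of 5 were higher than on Pre-miR negative control, beside 44.0% of all genes. Against Pre-miR negative control 4 of 5 lay below 0 with siGRB2, beside 44.2% of all genes, but TXNRD1 had joined them and PRDX1 had left. PRDX6, SRXN1 and TXN lay below 0 against either control, at -0.13, -0.10 and -0.01 here, below the scanner error of about 0.20. TXNRD1, the selenium-containing reductase of thioredoxin, had levels of 0.71 with Pre-miR negative control, 0.12 with Pre-miR-376c, -0.20 with siRNA negative control and 0.30 with siGRB2. Pre-miR negative control was the high array and siRNA negative control the low one, with both treated arrays between them. The difference with Pre-miR-376c was therefore -0.59 against its own control and 0.32 against the other, and that with siGRB2 was 0.50 and -0.40. PRDX1, a peroxiredoxin that removes hydrogen peroxide, had levels of 4.62, 4.89, 5.40 and 4.69 in the same order. It was highest on the siRNA negative control, and its difference with siGRB2 was -0.71 against that array and 0.07 against the other control. The 2 PRDX1 probes gave -0.38 and -1.04 for the first of these.

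PRDX6, which reduces phospholipid hydroperoxides, had levels of 5.91 with Pre-miR negative control, 5.65 with Pre-miR-376c, 5.93 with siRNA negative control and 5.77 with siGRB2. SRXN1, the sulfiredoxin that restores overoxidized peroxiredoxins, had levels of 1.48, 1.37, 1.55 and 1.38 in the same order. Both genes were lower on the treated arrays than on either control. For SRXN1 this order was kept under all 10 processing alternatives, though for a gene with 1 probe several of them leave the value as it is, and its differences of -0.11 and -0.17 were below the scanner error of 0.20. For PRDX6 the order was kept under 8 of 9 and lost after quantile normalization. TXN, thioredoxin itself, differed by 0.09 under Pre-miR-376c and by -0.37 under siGRB2, and by -0.01 under siGRB2 against the other control.

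The glutathione peroxidases differed by at most 0.41 from their own controls. GPX1, the abundant cytosolic form, had levels of 5.53 with Pre-miR negative control, 5.42 with Pre-miR-376c, 5.54 with siRNA negative control and 5.42 with siGRB2. The treated arrays were both lower by about 0.11, below the scanner error, and the 2 probes disagreed in direction with siGRB2 (-0.50 and 0.28). The order was lost under 3 of 10 alternatives. GPX2, the gastrointestinal form and a well-known NRF2 target, had levels of -4.65, -4.30, -4.88 and -4.47 in the same order. Both treated arrays were higher than both controls, by 0.35 with Pre-miR-376c and 0.41 with siGRB2 against their own controls. This order was kept under all 10 alternatives, though for a gene with 1 probe several of them leave the value as it is. After quantile normalization the siGRB2 difference was 0.08. GPX2 is a dim member, and the error of its differences was 0.23 and 0.26. GPX4, the phospholipid peroxidase that guards against ferroptosis, differed by -0.23 under Pre-miR-376c, by 0.33 under siGRB2 and by 0.04 under siGRB2 against the other control.

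Of the genes that supply NADPH or its precursors, ME1 had the highest difference of all members with Pre-miR-376c. ME1, the cytosolic malic enzyme, had levels of -2.65 with Pre-miR negative control, -1.90 with Pre-miR-376c, -2.61 with siRNA negative control and -2.49 with siGRB2. The Pre-miR-376c array was high and the other 3 were close together. Its difference was 0.75 against its own control and 0.71 against the other, which made ME1 the only member past 1.5-fold on the higher side against both controls with Pre-miR-376c, beside 0.809% of all genes. Over the processing alternatives the first value ranged from 0.65 to 0.87, and both treated arrays stayed above both controls under 8 of 10 of them. With siGRB2 it was 0.12 and 0.17, below the scanner error. PGD, TALDO1 and TKT of the pentose phosphate pathway differed by -0.23, 0.22 and 0.02 with Pre-miR-376c and by 0.46, -0.22 and 0.02 with siGRB2. Against the other control the siGRB2 differences were 0.17, 0.19 and 0.05.

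The heme and iron genes held the widest differences of the list. FTL, the ferritin light chain, had levels of 4.69 with Pre-miR negative control, 4.35 with Pre-miR-376c, 3.17 with siRNA negative control and 4.53 with siGRB2. The siRNA negative control was low and the other 3 arrays were within 0.34 of each other. The difference with siGRB2 was 1.36 against its own control, with 1.23 and 1.5 from its 2 probes, and -0.15 against Pre-miR negative control, so its direction turned with the control. With Pre-miR-376c it was -0.34 and 1.18. FTH1, the ferritin heavy chain with the ferroxidase site, had levels of 6.13, 6.51, 6.30 and 6.45 in the same order. Both treated arrays were above both controls, but the 3 FTH1 probes ranged from -0.03 to 0.86 with Pre-miR-376c, and the order was lost under 3 of 10 alternatives, the median scale, the normexp background correction and the median of a gene's probes. FTH1 also has many processed pseudogenes that could add signal.

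HMOX1, the stress-induced heme oxygenase, was measured by 10 spots, with levels of -0.05 with Pre-miR negative control, -0.59 with Pre-miR-376c, 0.90 with siRNA negative control and 0.24 with siGRB2. No spots of different arrays overlapped, and from low to high came Pre-miR-376c, its control, then siGRB2, with the siRNA negative control on top. The difference with Pre-miR-376c was -0.54 against its own control and -1.49 against the other. With siGRB2 it was -0.66 against its own control and 0.29 against the other, so the direction again turned with the control.

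**Figure D3:**
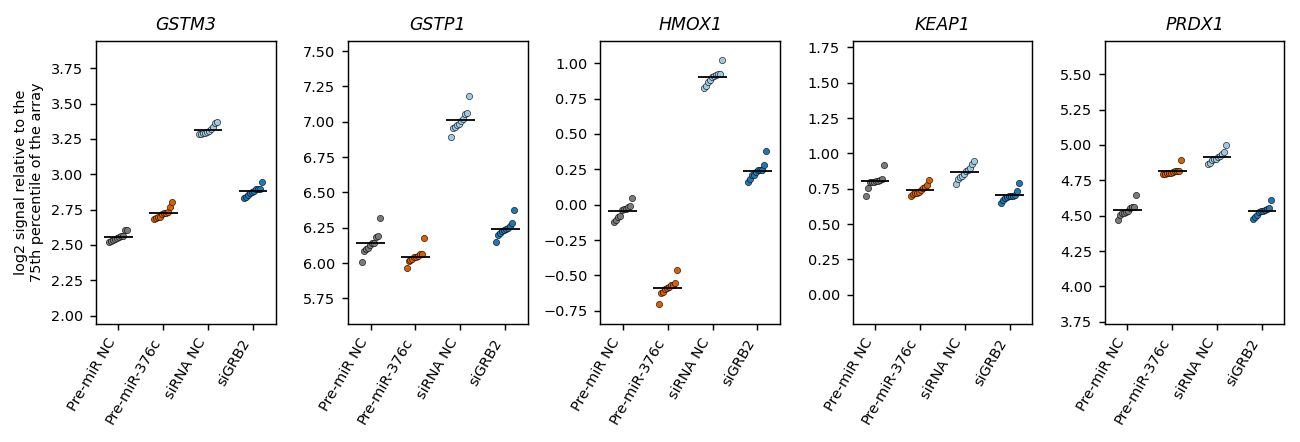
Level of the 5 members printed as 10 spots on each array (vertical axis, log2 signal relative to the array's 75th percentile), with a point for each spot and a bar for their mean; NC is negative control. Spots of one array spread with an SD of 0.03 to 0.08, and those of the siRNA negative control lie above all spots of the other 3 arrays for GSTM3, GSTP1 and HMOX1, while the spots of KEAP1 overlap between arrays.

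The aldo-keto reductases, which reduce carbonyls, steroids and prostaglandins with NADPH, included the member lowest with Pre-miR-376c. AKR1C1 had levels of -2.64 with Pre-miR negative control, -3.39 with Pre-miR-376c, -3.18 with siRNA negative control and -3.19 with siGRB2. Pre-miR negative control was the high array, and the difference with Pre-miR-376c was -0.76 against it and -0.21 against the other control, with -0.81 and -0.70 from the 2 probes. With siGRB2 it was -0.02 and -0.56. Both treated arrays were below both controls, narrowly, and this order was kept under 8 of 10 alternatives. The AKR1C1 probes may also take up signal from AKR1C2, a near-identical gene with no probe of its own by accession, so the value may belong to either.

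AKR1C3, which makes active androgens and prostaglandin F, had levels of -0.35 with Pre-miR negative control, -0.95 with Pre-miR-376c, -0.54 with siRNA negative control and -0.89 with siGRB2. Both treated arrays were lower than both controls. The lower control exceeded the higher treated array by 0.35, and AKR1C3 was the only member for which such a gap reached 0.2 downwards, beside 3.46% of all genes, with none upwards, beside 5.14%. The difference was -0.60 under Pre-miR-376c and -0.35 under siGRB2 against their own controls, and -0.41 and -0.54 against the others. This order was lost only with the normexp background correction, among 10 alternatives. AKR1B1, aldose reductase, had levels of 0.45, 0.30, 0.10 and 0.82 in the order used for AKR1C3. It was highest with siGRB2, by 0.73 against its own control and 0.37 against the other. AKR1B10 differed by 0.33 with Pre-miR-376c and -0.51 with siGRB2, with its 2 probes on the same side in both, and by -0.04 with siGRB2 against the other control.

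The aldehyde dehydrogenases differed with Pre-miR-376c by -0.10 for ALDH1A1, -0.37 for ALDH3A1 and 0.01 for ALDH3A2, of which that of ALDH3A1 exceeded its scanner error of 0.23. ALDH3A2, which oxidizes fatty aldehydes, had levels of -0.07 with Pre-miR negative control, -0.06 with Pre-miR-376c, 0.50 with siRNA negative control and -0.16 with siGRB2. The siRNA negative control was high and the rest lay together, so the difference with siGRB2 was -0.66 against its own control and -0.09 against the other. Its 2 probes gave -0.30 and -1.02 for the first value, and with Pre-miR-376c they went opposite ways (-0.28 and 0.29). ALDH1A1 and ALDH3A1 were dim members, and with siGRB2 they differed by 0.07 and 0.02 from the own control.

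The quinone, epoxide and P450 enzymes held the member that stood out with siGRB2 whichever control was used. EPHX1, the microsomal epoxide hydrolase, had levels of -1.46 with Pre-miR negative control, -1.37 with Pre-miR-376c, -1.59 with siRNA negative control and -0.83 with siGRB2. The siGRB2 array was high and the other 3 were close together. The difference with siGRB2 was 0.76 against its own control and 0.63 against the other, which made EPHX1 the only member past 1.5-fold on the higher side against both controls with siGRB2, beside 1.26% of all genes. On the median scale the first value was 0.47. With Pre-miR-376c it was 0.09 and 0.22. Both treated arrays were above both controls under all 9 alternatives that gave a value, though several of them leave the value of a 1-probe gene as it is.

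NQO1, the quinone reductase often taken as a readout of NRF2, had levels of -2.01 with Pre-miR negative control, -1.76 with Pre-miR-376c, -1.96 with siRNA negative control and -1.84 with siGRB2. Both treated arrays were higher than both controls, by 0.25 and 0.12 against their own controls, which is near or below the scanner error, and the order was lost on the median scale and after quantile normalization. CYP1B1, which oxidizes polycyclic hydrocarbons and estrogens, differed by -0.24 with Pre-miR-376c. With siGRB2 it differed by -0.49 from its own control, to which 1 of its 2 probes gave -0.97 and the other almost nothing, and by 0.08 from the other control. CYP1A1 was well above background on all arrays but the siRNA negative control, with levels of -5.65 with Pre-miR-376c, -5.69 with its control and -5.41 with siGRB2, against -6.08 there. CYP1A1's own signal there was higher than the lowest signal well above background on that array. Against it siGRB2 was higher by 0.67 (1.59-fold), a measured difference with a scanner error of 0.42 and not a lower bound. Against Pre-miR negative control siGRB2 was higher by 0.28, with an error of 0.32.

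Of the conjugating enzymes, GSTP1, the glutathione S-transferase typical of biliary epithelium and many tumours, had levels of 6.14 with Pre-miR negative control, 6.05 with Pre-miR-376c, 7.01 with siRNA negative control and 6.24 with siGRB2. The siRNA negative control was high over all 10 spots and the other 3 arrays overlapped in their spots. The difference with siGRB2 was -0.77 against its own control and 0.10 against the other. GSTM3, a mu-class transferase with 10 spots, differed by 0.17 under Pre-miR-376c and by -0.44 under siGRB2, and its level on the siRNA negative control was 0.76 above that on the other control, so that the siGRB2 difference was 0.32 against the latter. MGST1, the microsomal transferase, differed by 0.54 with Pre-miR-376c against its own control and 0.31 against the other, just inside the 1.5-fold limit. GSTO1 differed by 0.05 and -0.18 in the own-control comparisons and by -0.06 with siGRB2 against the other control. UGT1A6, a glucuronosyltransferase whose transcript shares its last exons with the other UGT1A genes, differed by -0.27 and 0.55 from its own controls and by 0.28 with siGRB2 against the other control, and its 2 probes went opposite ways between the controls.

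ABCC1, the exporter MRP1 that carries glutathione conjugates out of the cell, had levels of -1.93 with Pre-miR negative control, -1.94 with Pre-miR-376c, -2.34 with siRNA negative control and -1.64 with siGRB2. It was lowest on the siRNA negative control and highest with siGRB2. The difference with siGRB2 was 0.70 against its own control and 0.28 against the other. With Pre-miR-376c it was -0.02 and 0.39.

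Over all 4 arrays, 5 members were higher on both treated arrays than on both controls (EPHX1, FTH1, GPX2, ME1 and NQO1; 14.3%, beside 20.1% of all genes) and 6 were lower (AKR1C1, AKR1C3, GPX1, KEAP1, PRDX6 and SRXN1; 17.1%, beside 13.6% of all genes). Both shares are near the background of all genes. The 10 members past 1.5-fold with siGRB2 against its own control came down to EPHX1 when the same limit was asked against Pre-miR negative control as well. With Pre-miR-376c, the 4 members past that limit came down to ME1. No member was lower past 1.5-fold against both controls, beside 1.59% of all genes for Pre-miR-376c and 0.934% for siGRB2. None reached 2-fold against both, where Pre-miR-376c had 0.176% of all genes higher and 0.147% lower and siGRB2 had 0.25% higher and 0.11% lower.

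**Figure D4:**
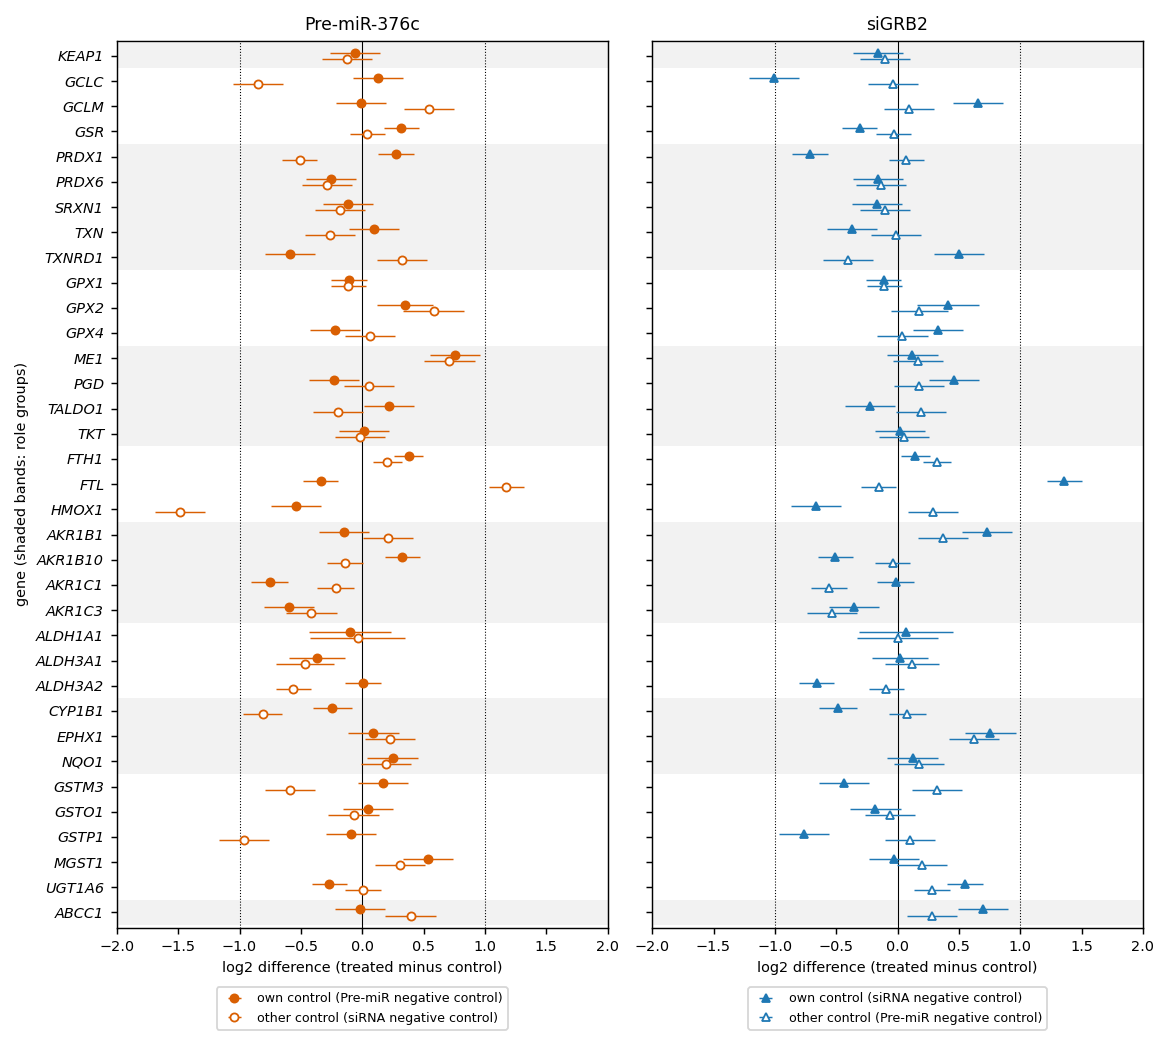
Log2 difference of each member with Pre-miR-376c (left) and siGRB2 (right) against its own negative control (filled) and the other one (open), with bars of the scanner software's error and dotted lines at 2-fold. For siGRB2 the filled and open symbols of FTL (1.36 and -0.15), GCLC (-1.01 and -0.04) and HMOX1 (-0.66 and 0.29) lie far apart, while those of EPHX1 (0.76 and 0.63) lie together.

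Another 115 genes of the same pathways were listed, and 89 of the 104 with a probe passed the filter. With Pre-miR-376c, 1 of the 89 was 2-fold apart (1.12%, beside 1.14% of all genes), the carboxylesterase CES1 at -1.10. The highest differences were those of ME2 (0.80), FECH (0.79) and PIR (0.70), and the lowest after CES1 were those of AKR1C4 (-0.77) and ABCC3 (-0.62). With siGRB2 against its own control, 8 of the 89 were 2-fold apart (8.99%), beside 6.74% of all genes, and 7 of them were higher (7.87%), beside 4.3% of all genes. Those higher included the mitochondrial thioredoxin reductase TXNRD2 (1.47) and the exporter ABCC4 (1.34), and the lowest of the 89 were GSTM4 (-1.41), BLVRA (-0.97) and TIPARP (-0.87). GSTM4 was dim, at -6.14 with Pre-miR negative control, -5.86 with Pre-miR-376c, -3.67 with siRNA negative control and -5.09 with siGRB2. AKR1C4 was dim as well, with levels from -5.96 to -5.18. Against the other negative control the values were -0.22 for TXNRD2, 0.96 for ABCC4, 1.05 for GSTM4, -0.41 for BLVRA and -0.55 for TIPARP with siGRB2. With Pre-miR-376c they were 1.14 for ME2, 0.11 for FECH, -0.01 for PIR, 0.13 for CES1, -0.34 for AKR1C4 and -0.16 for ABCC3. ABCC4 and ME2 thus kept a difference above 1.5-fold in the higher direction against both controls, and TXNRD2, GSTM4, CES1 and PIR turned in direction. In the own-control comparisons the median of the 89 was -0.01 under Pre-miR-376c and 0.18 under siGRB2, beside -0.02 and 0.11 for all genes. Against both controls, 15 of the 89 were higher on both treated arrays (16.9%, beside 20.1% of all genes) and 11 lower (12.4%, beside 13.6%).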

How the data were processed

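Gene expression was measured in 4 transfections of HuCCT1, 1 array each, on an Agilent 1-colour 44 K design. The authors deposited, for each array, spot intensity values of Agilent Feature Extraction (10.7.3.1 per the file headers), background-subtracted and not scaled between arrays, and a table of log2 values per probe, shifted to the 75th percentile in GeneSpring GX. Processed intensities were converted to log2 in Python (3.11.15; pandas 2.3.3, numpy 2.4.6), the array's 75th percentile (43118 spots, controls excluded) was subtracted, outlier-flagged spots (289 to 329 on an array) were dropped, spots of a probe were averaged, and probes well above background on all 4 arrays were averaged per gene. A probe counted as well above background when the flag was set on more than 0.5 of its spots. No spot was saturated. RefSeq accessions named 25422 of 34127 probes (74.5%) with GRCh38.p14 symbols.

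Samples were grouped by their transfection label. With 1 array per group no test was made, and called means past 2-fold, the limit of the study's methods, or 1.5-fold. The calling step was run on simulated data with planted changes larger than the 2-fold limit. That run does not bear on the 1.5-fold limit or on variation between cultures. Values on every array were given for NFE2L2 and KEAP1, members past 1.5-fold with a treatment against its own control, and members whose treated arrays lay on one side of both controls. Other members were given by differences and ranges, the 10 brightest were named, and of a wider list of 115 pathway genes the 3 highest and 3 lowest, except 1 gene that is not reported here. GRB2 served as the targeted gene, and markers of 5 cell types were checked. The members, lists, motifs and limits were chosen with earlier results of these data known. Alternative settings were a shift to the median, quantile normalization, the percentile taken over detected probes, normexp (offset 50, limma 3.58.1 in R 4.3.3), the authors' deposited log2 values, the brightest or median probe of a gene, outlier-flagged spots retained, no background filter, a 1.5-fold limit, and the other control or the mean of both controls. For a member with 1 probe, the brightest and the median probe leave its value unchanged. A comparison of protein sequences within families was planned and not run, as no protein sequences were used here.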

Additional observations from a re-analysis of the deposited data

How the results depend on the processing

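The array's own noise and the lack of a replicate limit every value, and dim members such as ALDH1A1, GPX2 and CYP1A1 lay near background. No paired analysis was possible because there is 1 array per transfection. No member was 2-fold apart with Pre-miR-376c as reported, against 4 with a 1.5-fold limit, 2 with the other negative control and 1 with the mean of both negative controls, and the median of the members moved from -0.02 to 0.10 with the median shift. With siGRB2, 2 members were 2-fold apart as reported, 1 with the percentile over detected probes, 20 with normexp, 10 with a 1.5-fold limit, and 0 with either the other negative control or the mean of both. Normexp put 57.3% of all genes past 2-fold in this comparison. Normexp refitted without background-flagged spots, chosen after seeing the data, left 1 of 32 members. The members' median with siGRB2, -0.03 as reported, was -0.31 with the median shift, -0.26 with normexp, -0.16 with the brightest probe of a gene and 0.0726 with the other negative control. FTL with siGRB2 turned from 1.36 to -0.15 with the other negative control. Between the negative controls, 1 member was 2-fold apart as reported, 6 with the median shift, 3 in the deposited log2 values, 2 with the brightest probe and 7 with a 1.5-fold limit, and the median moved from 0.05 to 0.32 with the median shift. Where no value bears on the cause of such a move, the cause was not tested. Of the 70 single-member differences against own controls, 25 stayed within the scanner error with the other negative control, and the rest moved by more. Several differences also turned in direction with that control, among them those of FTL, HMOX1 and TXNRD1 with siGRB2. Of the 70, 28 moved with the mean of both negative controls, 34 with the median shift, 35 with normexp and 10 with quantile normalization. The brightest probe moved 9, and the deposited values and flagged spots kept moved none.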
